A study of Mus musculus with 6 samples.

Results

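A set of 7 genes of DNA alkylation repair and mismatch repair were followed: Mgmt, Alkbh2, Alkbh3, Mpg, Msh3, Msh6 and Pms2, which are 7 of the 41214 genes in the deposited table, found by gene symbol. The set was chosen by the FPKM of Mgmt, which is close to silent in shCdGAP cells, so the levels of these 7 genes in the 2 groups are given as a description, without a test. All 7 passed the filter on low genes. The cells were mouse mammary tumor explant cells in culture, derived from the mammary epithelial line NMuMG and expressing Neu-NT, a constitutively active version of the rat growth factor receptor ErbB2. CdGAP-depleted cells (genotype Neu-NT shCdGAP, 3 libraries of total RNA) were set against control-hairpin cells (genotype Neu-NT shCON, 3 libraries), and both groups carried Neu-NT and were grown with insulin and G418. The cell type field names the control hairpin for all 6 samples, so the genotype and title fields define the groups. The labels do not give a number of clones, or name the cultures behind the libraries, so a p-value here measures how far these libraries spread, and that spread may be technical.

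Alkylating agents add methyl groups to bases. Mgmt encodes the methyltransferase that takes the methyl group off the oxygen of guanine and is used up in doing so, Alkbh2 and Alkbh3 encode dioxygenases that oxidise methyl groups off adenine and cytosine, and Mpg encodes the glycosylase that cuts out methylated purines and starts base excision repair. Mismatch repair recognises mispairs with MutS dimers, which contain Msh6 for single mispairs or Msh3 for larger loops, and then recruits a MutL dimer that contains Pms2. In cells with little Mgmt, mispairs of methylated guanine are processed by mismatch repair, which is what ties the 2 systems together in the response to methylating drugs. The human MGMT promoter is known for silencing by CpG methylation in tumors; DNA methylation was not measured here.

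The 250 bases upstream of the RefSeq start (GRCm38.p6, the build of mm10) are shown for 5 of the genes, read 5′ to 3′ on the strand of the gene, with every CpG in capitals. Mgmt and Alkbh2 are shown because their levels were lower in every shCdGAP library, Msh6 and Pms2 because they were low together in 1 library, and Msh3 because it was level in that same library.
Mgmt, chr7:136894336-136894585, plus strand: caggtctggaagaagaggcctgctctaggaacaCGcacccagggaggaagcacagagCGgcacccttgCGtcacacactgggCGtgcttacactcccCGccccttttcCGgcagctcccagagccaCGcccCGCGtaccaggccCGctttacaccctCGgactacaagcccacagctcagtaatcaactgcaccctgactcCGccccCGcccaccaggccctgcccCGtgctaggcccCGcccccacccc
Alkbh2, chr5:114128219-114128468, minus strand: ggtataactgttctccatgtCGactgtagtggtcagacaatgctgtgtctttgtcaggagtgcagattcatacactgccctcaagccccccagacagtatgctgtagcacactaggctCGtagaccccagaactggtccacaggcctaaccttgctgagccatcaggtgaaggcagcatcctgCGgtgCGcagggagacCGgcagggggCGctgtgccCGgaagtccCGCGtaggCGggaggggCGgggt
Msh3, chr13:92355004-92355253, minus strand: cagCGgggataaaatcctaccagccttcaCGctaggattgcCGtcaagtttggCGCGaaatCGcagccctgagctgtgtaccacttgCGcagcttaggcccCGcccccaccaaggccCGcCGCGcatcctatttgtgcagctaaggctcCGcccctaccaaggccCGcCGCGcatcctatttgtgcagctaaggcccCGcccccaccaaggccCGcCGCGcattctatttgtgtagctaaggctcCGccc
Msh6, chr17:87974800-87975049, plus strand: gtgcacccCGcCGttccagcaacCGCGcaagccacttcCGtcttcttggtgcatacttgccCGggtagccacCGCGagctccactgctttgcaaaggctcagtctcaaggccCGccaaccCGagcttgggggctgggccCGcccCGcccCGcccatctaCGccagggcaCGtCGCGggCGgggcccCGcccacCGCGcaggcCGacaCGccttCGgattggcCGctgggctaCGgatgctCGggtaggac
Pms2, chr5:143909751-143910000, plus strand: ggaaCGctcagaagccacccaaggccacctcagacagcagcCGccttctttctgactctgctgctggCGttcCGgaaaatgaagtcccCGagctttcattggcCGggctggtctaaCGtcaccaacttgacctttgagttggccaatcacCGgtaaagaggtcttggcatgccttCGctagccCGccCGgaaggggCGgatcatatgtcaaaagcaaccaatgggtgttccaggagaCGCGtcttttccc

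These windows held 15 CpGs in Mgmt, 11 in Alkbh2, 20 in Msh3, 27 in Msh6 and 14 in Pms2, against a median of 6 over 32851 windows of the same length. Over the full 300 bases, which run 50 bases past the start, Mgmt had 20 CpGs, more than 73.5% of all windows, and Msh6 had 37, more than 94.4%. A further RefSeq start of Mgmt lies downstream, and its 300-base window had 3 CpGs. The GC box GGGCGG, searched on both strands, matched 4 times in the first Mgmt window, 5 times in Msh6, 4 in Msh3, 3 in Mpg, 2 in Pms2, 1 in Alkbh2 and 0 in Alkbh3, and 35.7% of all windows hold it. The E2F-like motif TTTNNCGC, also searched on both strands, matched 2 times in Msh3, at 1 spot where the matches on opposite strands overlap. It matched 1 time in Msh6, past the start and so outside the bases shown. The motif had 0 matches in the windows of the other 5 genes, and 5.17% of all windows hold it. Both motifs were searched in the full 300 bases. Matches of the 2 motifs did not overlap each other in these windows, though neighbouring GC box matches in Msh6 shared bases. Matches describe letters and not bound sites.

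The libraries held 19176540 to 26824249 gene-assigned reads. Arhgap31, the gene of CdGAP and target of the hairpin, stood at 0.149, 0.826 and 0.748 FPKM (fragments scaled by gene length and library size) in shCdGAP replicates 1, 2 and 3, against 1.19, 1.30 and 1.35 FPKM in shCON. All shCdGAP libraries lay below all controls, but the gene was not called (log2 fold change -0.56, SE 0.19, adjusted p = 0.0836, limma; 0.00851 to 0.218 over 14 alternatives, of which 12 were not called). It was called without shCdGAP replicate 1 (adjusted p = 0.0157). Replicate 1 of shCdGAP stood apart, with a correlation across tested genes of 0.948 and 0.938 with replicates 2 and 3, which correlated at 0.996. Epithelial keratins were abundant (Krt8 at 1546 to 3022 FPKM in shCdGAP and 1491 to 2259 FPKM in shCON), and of the 6 tested epithelial markers 1 was called higher and 2 lower. Cdh1, encoding E-cadherin, was higher at 184, 152 and 167 FPKM in shCdGAP, against 37.9, 56.9 and 57.2 FPKM in shCON (log2 fold change 1.73, SE 0.19, adjusted p = 0.00220, limma). Krt19 averaged 479 FPKM in shCdGAP and 358 FPKM in shCON, without overlap and without a call. Epcam, called lower, was listed at 0 in every shCdGAP library against 0.517 to 0.812 FPKM in shCON. The other call was Krt5, which like Krt14 was under 1 FPKM in all 6 libraries. The 6 fibroblast markers summed to 0.589 to 1.09 FPKM in shCdGAP and 0.808 to 0.928 FPKM in shCON, with Lum and Thy1 at 0. The 5 endothelial markers summed to at most 0.0295 FPKM in shCdGAP and 0.265 FPKM in shCON, with Emcn at 0. The 6 leukocyte markers summed to 3.01 to 9.70 FPKM in shCdGAP and 13.0 to 17.9 FPKM in shCON, most of it Cd68, at 8.45, 4.42 and 2.37 FPKM in shCdGAP replicates 1, 2 and 3 and 17.3, 12.2 and 12.3 FPKM in shCON. Csf1r lay the other way, with means of 0.786 FPKM in shCdGAP and 0.383 FPKM in shCON and overlapping groups, while Adgre1 was at 0 and Ptprc at most 0.0197 FPKM. The part of these marker levels in the results was not tested.

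Mgmt (ENSMUSG00000054612, chr7:136894614-137130266 of mm10, plus strand) was nearly absent from shCdGAP cells and well expressed in controls. It had 0.374, 0.167 and 0.0492 FPKM in shCdGAP replicates 1, 2 and 3, against 11.1, 11.6 and 13.4 FPKM in shCON. Behind these values stood 7, 3 and 1 reads in shCdGAP and 175, 262 and 293 reads in shCON. The groups did not overlap, and the highest shCdGAP library lay far below the lowest control. The group means were 0.197 ± 0.165 FPKM in shCdGAP and 12.0 ± 1.20 FPKM in shCON (SD, n = 3 each), a 61.1-fold lower level. From the summed reads, 11 in shCdGAP and 730 in shCON, the level was 62.8-fold lower with a 95% exact interval of 34.9 to 126, which covers counting error only. The difference was -3.45 on the log2(FPKM + 1) scale, which shrinks differences of low genes, and -5.51 with 0.1 FPKM added in place of 1. Among 7960 tested genes with at least 5 FPKM on average in controls, Mgmt had rank 21 counted from the lowest ratio of shCdGAP to shCON. Mgmt was chosen for its low level in shCdGAP, so a low rank follows from that choice and nothing is read from it. In RNA from whole cultures, fewer expressing cells and less RNA per cell cannot be told apart.

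Alkbh2 (ENSMUSG00000044339, chr5:114123926-114128218, minus strand) was the other gene of the 7 whose groups did not overlap. It had 5.14, 3.43 and 4.80 FPKM in shCdGAP replicates 1, 2 and 3, against 13.6, 11.8 and 11.4 FPKM in shCON. Every shCdGAP library lay below every control library, and the spread within each group was small beside the gap. The means were 4.46 ± 0.904 FPKM in shCdGAP and 12.3 ± 1.14 FPKM in shCON (SD, n = 3 each), a 2.75-fold lower level and a difference of -1.29 on the log2(FPKM + 1) scale. Its ratio had rank 180 among the same 7960 genes, and nothing is read from this rank either. Alkbh2 shares 329 exonic bases with Usp30 on the opposite strand, and no source used here gives the handling of strand, so reads in that stretch cannot be assigned to either gene with certainty. Usp30 itself had 12.6, 8.48 and 8.61 FPKM in shCdGAP and 9.18, 9.53 and 10.6 FPKM in shCON and was not called (log2 fold change -0.0019, adjusted p = 0.995, limma).

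Alkbh3 (ENSMUSG00000040174, chr2:93980550-94010807, minus strand), the AlkB enzyme that also acts on RNA and single-stranded DNA, overlapped between groups. It had 8.13, 4.99 and 5.14 FPKM in shCdGAP replicates 1, 2 and 3, against 7.01, 6.53 and 6.67 FPKM in shCON. Replicate 1 of shCdGAP was the highest of all 6 libraries and replicates 2 and 3 were the lowest. The difference of -0.15 on the log2(FPKM + 1) scale became -0.35 without shCdGAP replicate 1. Alkbh3 stood at 1.58, 1.45 and 1.07 times the level of Alkbh2 in shCdGAP replicates 1, 2 and 3, against 0.517, 0.553 and 0.584 times in shCON. Alkbh2 was the more abundant of the 2 in every control library and the less abundant in every shCdGAP library.

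Mpg (ENSMUSG00000020287, chr11:32226505-32232700, plus strand) had 7.62, 6.09 and 5.61 FPKM in shCdGAP replicates 1, 2 and 3, against 8.46, 7.24 and 7.94 FPKM in shCON. The groups overlapped through shCdGAP replicate 1, and the difference was -0.26, or -0.37 without that library. The whole gene lies inside Nprl3 on the opposite strand, with 1340 of its 3752 annotated exonic bases shared, so part of its reads cannot be told from those of Nprl3. Nprl3, a regulator of amino acid signalling, had 5.61, 3.91 and 3.89 FPKM in shCdGAP and 4.29, 3.84 and 4.17 FPKM in shCON.

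**Figure D1:**
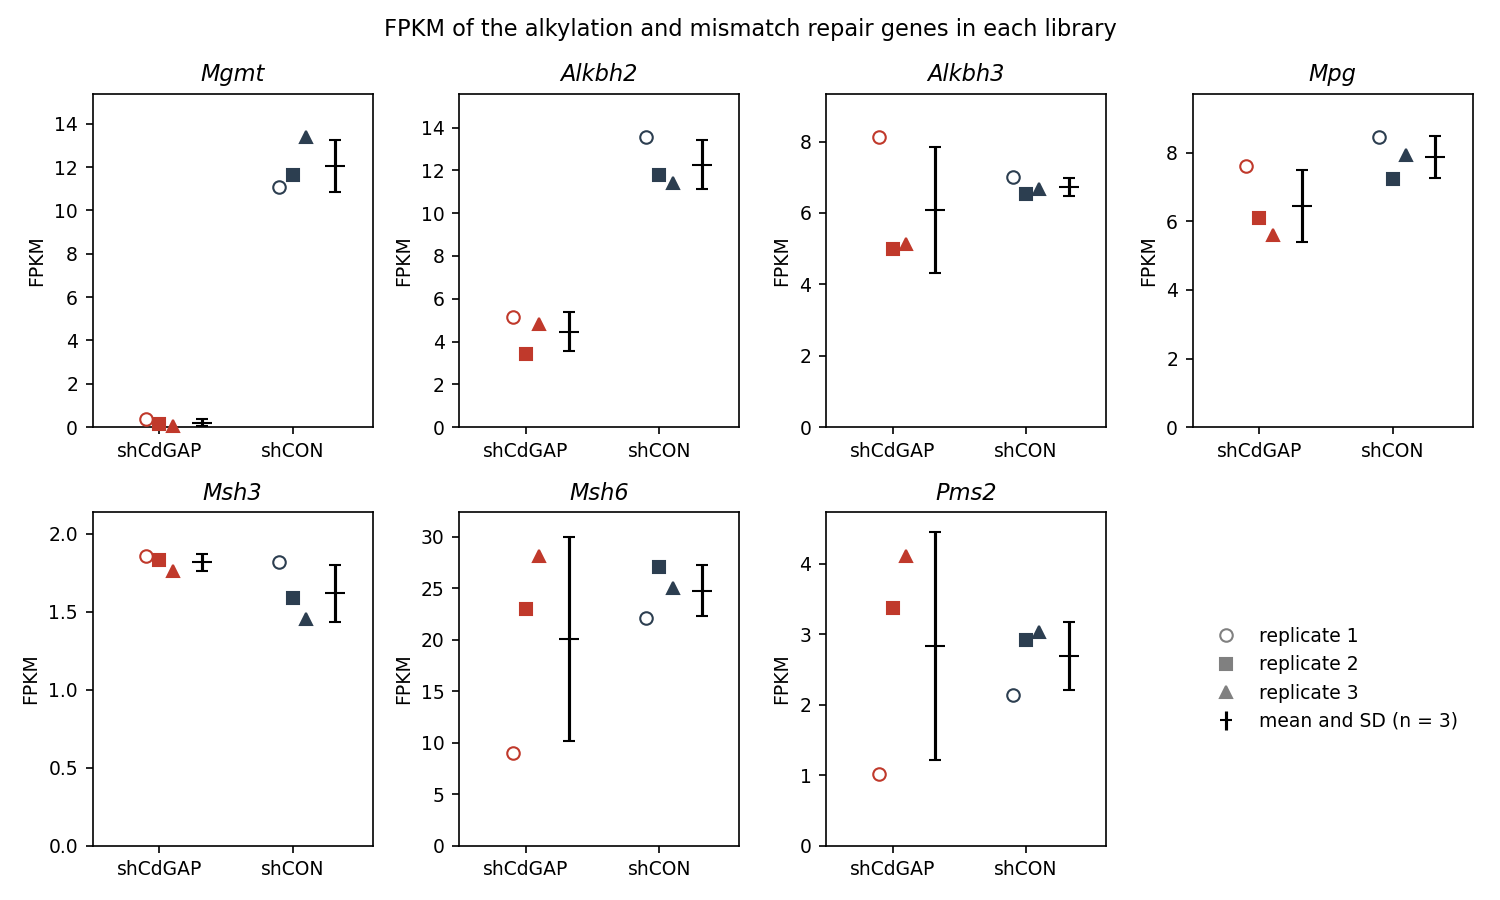
FPKM of each of the 7 genes (vertical axes, from 0) in the 3 shCdGAP and 3 shCON libraries, with the mean and SD of each group in black. Mgmt and Alkbh2 separate the groups, while Msh6 and Pms2 have their lowest value, 9.01 and 1.01 FPKM, in shCdGAP replicate 1.

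Msh3 (ENSMUSG00000014850, chr13:92211872-92355003, minus strand), the subunit that recognises larger loops, was low and even. It had 1.86, 1.83 and 1.76 FPKM in shCdGAP replicates 1, 2 and 3, against 1.82, 1.59 and 1.45 FPKM in shCON. The ranges overlapped through shCON replicate 1, and the difference was 0.11 on the log2(FPKM + 1) scale. Msh3 was the steadiest of the 7 within shCdGAP: replicate 1 differed from the mean of replicates 2 and 3 by 0.034.

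Msh6 (ENSMUSG00000005370, chr17:87975062-87990892, plus strand), the subunit for single mispairs, was the most abundant of the 7. It had 9.01, 23.0 and 28.2 FPKM in shCdGAP replicates 1, 2 and 3, against 22.1, 27.1 and 25.0 FPKM in shCON. Replicate 2 of shCdGAP lay within the control range, replicate 3 above it, and replicate 1 far below the other libraries. The difference between groups was -0.42 on the log2(FPKM + 1) scale and 0.044 without shCdGAP replicate 1. It was -0.031 without both libraries numbered 1.

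Pms2 (ENSMUSG00000079109, chr5:143909964-143933968, plus strand), the endonuclease subunit of MutL, went the same way. It had 1.01, 3.37 and 4.12 FPKM in shCdGAP replicates 1, 2 and 3, against 2.13, 2.91 and 3.02 FPKM in shCON. Replicate 1 of shCdGAP was the lowest library and replicates 2 and 3 the 2 highest. The difference was -0.045, and 0.37 without shCdGAP replicate 1.

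Over all tested genes, limma at an adjusted p under 0.05 called 21.0% of 13483, 9.92% as higher and 11.1% as lower. The share called was 39.9% without shCdGAP replicate 1 and 18.2% in the fit blocked on replicate. The contrast chose the 7 genes, so no calls are given for them. The groups did not overlap for 2 of the 7, Mgmt and Alkbh2, against 44.1% of all tested genes. Both were lower in shCdGAP, against 22.3%, and nothing is read from these counts. The authors' deposited table, which called 23.8% of 16970 genes, gave a log2 fold change of -5.34 for Mgmt and -1.42 for Alkbh2. The median difference of the 7 was -0.26, beside -0.010 over all tested genes. Nothing is read from this median either, since the contrast chose the 7 genes.

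Other MutS and MutL homologs were tested, since the choice did not name them. Of 6 tested, 1 was called higher and 1 lower, beside 9.92% and 11.1% of all tested genes. Mlh3, the MutL homolog that acts in meiosis and in part of mismatch repair, fell to 1.20, 1.14 and 1.18 FPKM in shCdGAP, against 3.75, 3.24 and 2.87 FPKM in shCON (log2 fold change -0.97, SE 0.11, adjusted p = 0.00248, limma). Mlh3 was called lower in all 15 alternatives, with an adjusted p of at most 0.0188. Pms1, another MutL homolog, had 1.08, 1.82 and 1.74 FPKM in shCdGAP and 2.18, 1.66 and 1.64 FPKM in shCON and was not called (log2 fold change -0.16, SE 0.16, adjusted p = 0.531, limma).

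The levels of the loop and single-mispair subunits were also set side by side. Msh6 stood at 4.84, 12.5 and 16.0 times the level of Msh3 in shCdGAP replicates 1, 2 and 3, against 12.2, 17.1 and 17.2 times in shCON. Replicate 1 of shCdGAP was the lowest library, and replicates 2 and 3 lay within the control range. These are ratios of FPKM, that is, of RNA per length, and say nothing of protein.

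Few other genes of the same pathways were called. Of 53 further genes in 5 lists, chosen with earlier results of these data known, 52 were tested and 4 were called, 2 higher and 2 lower, beside the 21.0% of all genes. In shCdGAP replicate 1, 13 of the 52 lay at least 1 log2 unit below the mean of replicates 2 and 3, beside 5.56% of all tested genes. Such spread widens the standard error, so the low count does not show that these genes were level. The median log2 fold change of the 52 was -0.16, beside -0.010 over all tested genes, and turned to 0.080 without shCdGAP replicate 1. The count was 11 without shCdGAP replicate 1 (7 higher and 4 lower), 2 without shCdGAP replicate 2, and 1 without shCON replicate 2 or 3. In the authors' deposited table it was 6 of 53 (4 higher and 2 lower), beside 23.8% of all its genes called. Over all 13483 tested genes the count moved as well. It was 5373 without shCdGAP replicate 1, 1476 without shCdGAP replicate 2, and 1237 and 1332 without shCON replicates 2 and 3.

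In direct reversal, 0 of 10 genes of the AlkB family and the ASCC partners of Alkbh3 were called by limma. At an unadjusted p under 0.05 there were 2, and limma-voom and the authors' deposited table called 0 each. Alkbh5, an RNA demethylase and the most abundant of them, averaged 37.5 ± 4.16 FPKM in shCdGAP and 38.9 ± 3.24 FPKM in shCON (SD, n = 3 each; log2 fold change -0.051, SE 0.12, adjusted p = 0.799, limma). Without shCdGAP replicate 1, limma called Ascc1 higher, beside 39.9% of all tested genes called. Ascc1 had 36.1, 17.8 and 17.1 FPKM in shCdGAP replicates 1, 2 and 3, against 12.7, 13.7 and 14.1 FPKM in shCON.

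Of 9 tested DNA glycosylases other than Mpg, limma called 1 lower and 0 higher. The authors' deposited table called Neil1 higher and Mutyh lower, beside 23.8% of all its genes called. Without shCdGAP replicate 1, limma called Nthl1 higher and Mutyh lower, beside 39.9% of all tested genes called. Mutyh, which removes adenine opposite oxidised guanine, fell to 0.553, 0.575 and 0.447 FPKM in shCdGAP, against 0.912, 0.919 and 1.07 FPKM in shCON (log2 fold change -0.37, SE 0.074, adjusted p = 0.0184, limma). Its reads were few, 29 to 33 per library in shCdGAP and 46 to 75 in shCON. It did not hold in a fit blocked on replicate (adjusted p = 0.0561), with no filter (0.0515), without shCdGAP replicate 2 or 3 (0.0581 and 0.0558) and without shCON replicate 2 or 3 (0.0699 and 0.0782), in a range of 0.00852 to 0.0782 over 14 alternatives. Ung, the uracil glycosylase whose gene lies 6.46 kb to the right of Alkbh2 (between lowest coordinates), had 0.988, 3.50 and 5.57 FPKM in shCdGAP and 5.93, 4.15 and 4.79 FPKM in shCON and was not called (log2 fold change -0.61, SE 0.43, adjusted p = 0.380, limma).

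Of 12 base excision genes that act after the glycosylase, limma called 1 higher and 0 lower. The authors' deposited table called Apex1 and Aptx higher. Without shCdGAP replicate 1, limma called Apex1 and Parp2 higher and Xrcc1 lower, beside 39.9% of all tested genes called. Apex1, the endonuclease that cuts at abasic sites, including those left by Mpg, rose to 146, 123 and 152 FPKM in shCdGAP, against 87.8, 91.5 and 95.9 FPKM in shCON (log2 fold change 0.60, SE 0.11, adjusted p = 0.0154, limma). It was higher in 3 of 3 shCdGAP libraries, but leaving out shCON replicate 1, 2 or 3 ended the call (adjusted p = 0.0589, 0.0770 and 0.0619; 2.26e-04 to 0.0770 over 15 alternatives).

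Of 15 genes that act after mismatch recognition, 0 were called by limma, limma-voom or the authors' deposited table, and 2 were at an unadjusted p under 0.05 in limma. Without shCdGAP replicate 1, Rpa3 and Setd2 were called higher and Pold4 lower, beside 39.9% of all tested genes called. The median log2 fold change was then 0.12 in place of -0.34. Exo1, the exonuclease that removes the strand with the error, had 0.556, 7.83 and 9.26 FPKM in shCdGAP and 6.47, 10.1 and 9.73 FPKM in shCON (log2 fold change -0.89, SE 0.73, adjusted p = 0.444, limma). Pcna, the sliding clamp, had 20.7, 81.8 and 87.3 FPKM in shCdGAP and 67.3, 82.4 and 86.1 FPKM in shCON (log2 fold change -0.55, SE 0.55, adjusted p = 0.531). In both, shCdGAP replicate 1 was far below the 5 other libraries.

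Downstream of unrepaired mispairs, 0 of 12 checkpoint genes were called by limma and 0 had an unadjusted p under 0.05. Limma-voom and the authors' deposited table called 0 each. Without shCdGAP replicate 1, 3 of the 12 were called higher (Atr, Chek1 and Rad9a), beside 2680 of all 13483 tested genes. Trp53, encoding p53, averaged 49.4 ± 8.81 FPKM in shCdGAP and 50.7 ± 1.63 FPKM in shCON (SD, n = 3 each). Of 10 tested genes of DNA methylation and its readers, 1 was higher and 0 lower. Without shCdGAP replicate 1, Dnmt3a and Uhrf1 were called higher. Dnmt3a, a de novo methyltransferase, rose to 3.24, 3.12 and 2.58 FPKM in shCdGAP, against 2.09, 1.72 and 1.71 FPKM in shCON (log2 fold change 0.49, SE 0.12, adjusted p = 0.0323, limma). The call was lost with no filter (adjusted p = 0.0513), without shCdGAP replicate 2 (0.114) and without shCON replicate 1, 2 or 3 (0.0526, 0.140 and 0.134), in a range of 7.17e-04 to 0.140 over 15 alternatives. DNA methylation at Mgmt was not measured, so no relation to it was tested.

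**Figure D2:**
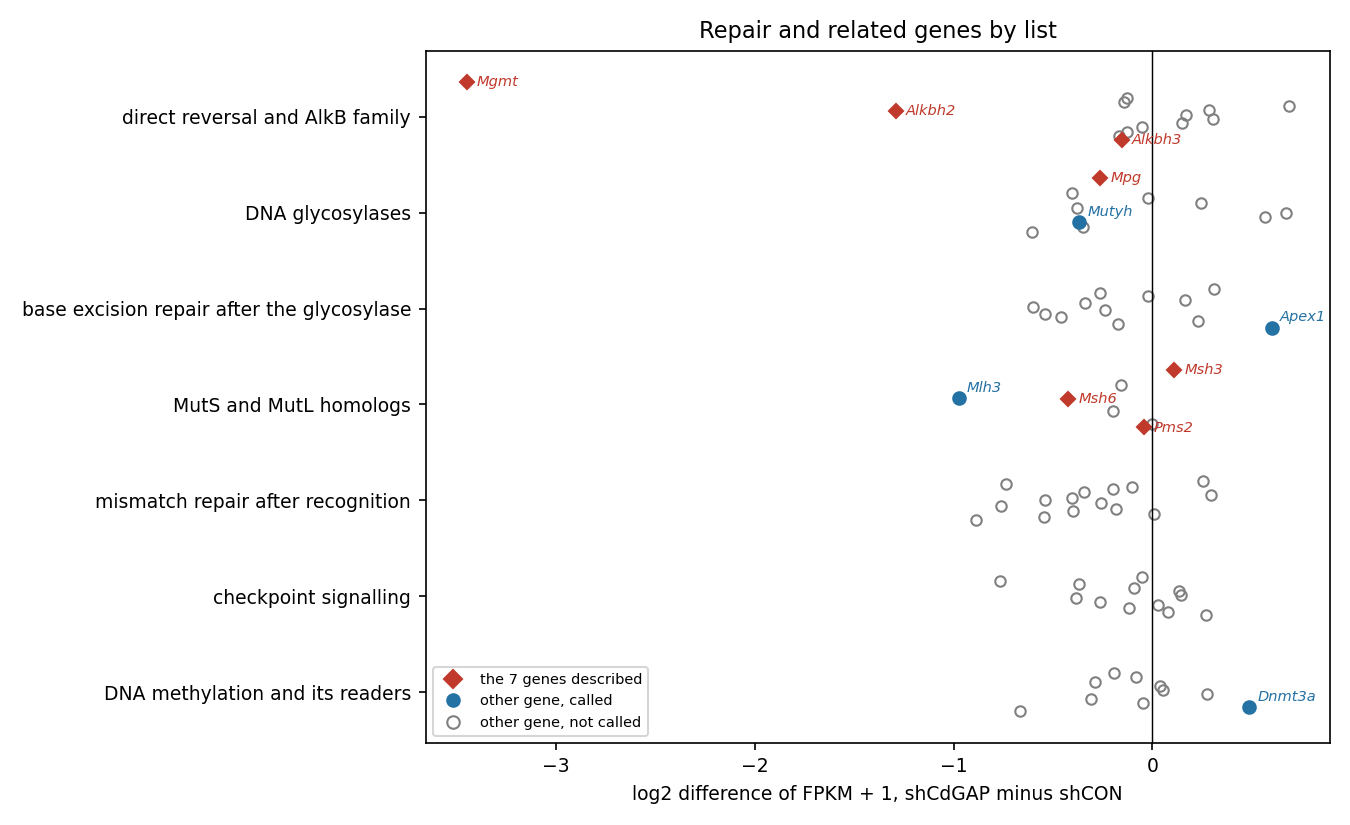
Difference in log2(FPKM + 1), shCdGAP minus shCON, for the 7 genes (red diamonds) and for other tested genes of 7 lists (circles, filled and named where limma called them). Mgmt, at -3.45, and Alkbh2, at -1.29, lie left of the other genes shown.

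Within shCdGAP, replicate 1 split the 7 genes. On the log2(FPKM + 1) scale, Msh6 in replicate 1 differed from the mean of replicates 2 and 3 by -1.40 and Pms2 by -1.23. By the same measure Mgmt (0.31), Alkbh2 (0.28), Alkbh3 (0.59) and Mpg (0.33) were somewhat higher, and Msh3 was level. The Mgmt difference rests on only 7, 3 and 1 reads in replicates 1, 2 and 3. A difference of -1 or below was found for 5.56% of tested genes, and one of at least 1 in either direction for 9.38%, against 0.363% in the same contrast within shCON. All 15 proliferation markers were that low in the same library, with a median of -3.38, and their summed level was 110 FPKM in replicate 1 against 1036 and 1057 FPKM in replicates 2 and 3. Between the groups, 0 of the 15 markers were called by limma and 0 had an unadjusted p under 0.05. Limma-voom and the authors' deposited table called 0 each. Without shCdGAP replicate 1, 6 of the 15 were called higher, beside 2680 of all 13483 tested genes. Of the 15 genes acting after mismatch recognition, 9 were that low (median -1.26), as were 4 of 12 checkpoint genes (median -0.57), beside a median of 0.015 over all tested genes. The direct reversal list had 0 of 10 that low (median 0.10). In shCON, replicate 1 was the library with the lowest sum of proliferation markers as well, at 603 FPKM against 844 and 846, and there Msh6 and Pms2 differed from the mean of replicates 2 and 3 by -0.22 and -0.34. The part of proliferation in the levels of Msh6 and Pms2 was not tested.

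**Figure D3:**
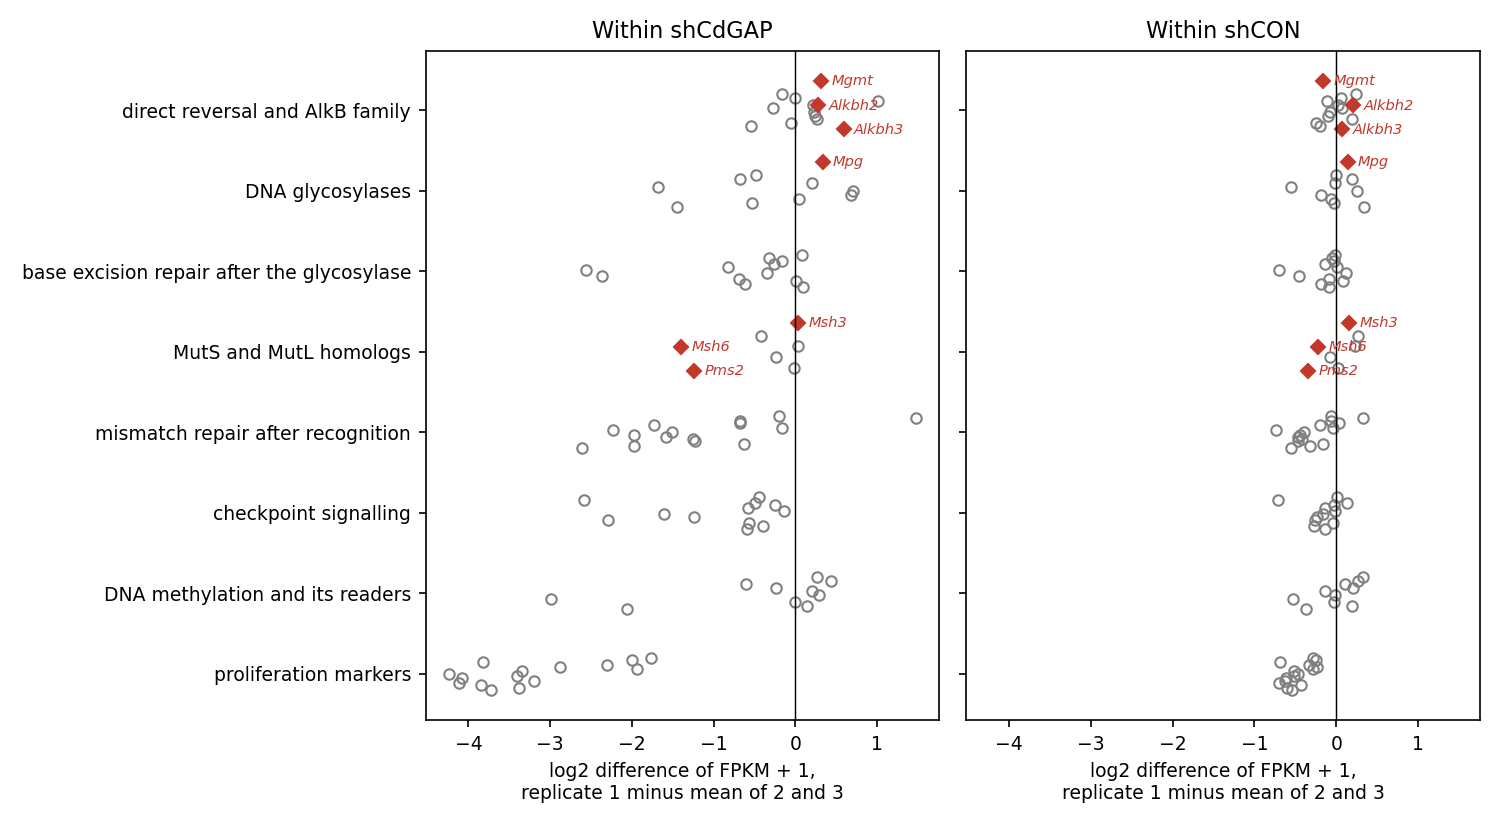
Difference in log2(FPKM + 1) between replicate 1 and the mean of replicates 2 and 3, within shCdGAP (left) and within shCON (right), for the 7 genes (red diamonds) and other tested genes of 8 lists (grey circles). In shCdGAP, Msh6 (-1.40) and Pms2 (-1.23) lie with the mismatch repair genes that act after recognition, and Mgmt, Alkbh2, Alkbh3 and Mpg lie right of 0. The Mgmt point in shCdGAP rests on only 7, 3 and 1 reads.

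The genes next to these 7 on the chromosome were looked up in GENCODE M21, with distances taken between lowest coordinates. The nearest tested genes to Mgmt were Mki67, the proliferation marker, 1205 kb to its left, and 9430038I01Rik, 481 kb to its right. Mki67 had 4.36, 72.0 and 67.7 FPKM in shCdGAP and 27.3, 40.3 and 40.2 FPKM in shCON (log2 fold change -0.28, adjusted p = 0.878, limma; 0.96 and called higher without shCdGAP replicate 1). The gene 9430038I01Rik had 1.00, 0.578 and 0.539 FPKM in shCdGAP and 0.477, 0.518 and 0.598 FPKM in shCON (log2 fold change 0.15, adjusted p = 0.425). Of 72 other tested genes within 5 Mb of Mgmt, 4 were called higher and 5 lower, beside 9.92% and 11.1% of all tested genes. Their median difference was 0.11, beside -0.010 over all tested genes.

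**Figure D4:**
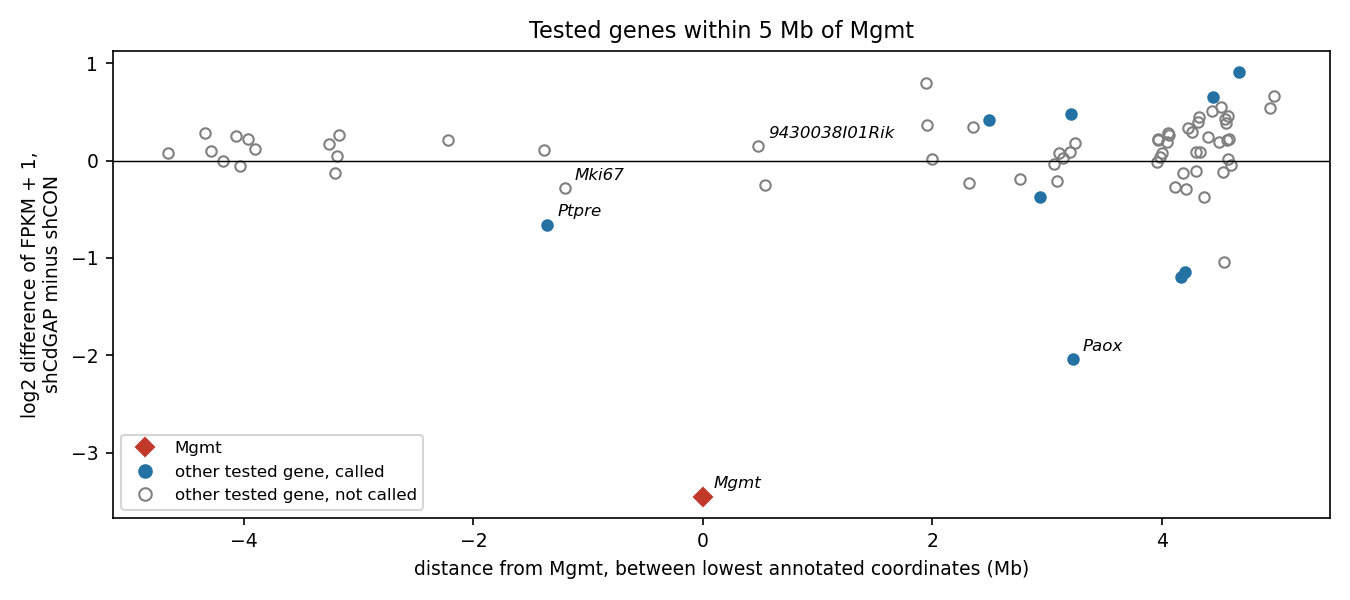
Difference in log2(FPKM + 1), shCdGAP minus shCON, of tested genes within 5 Mb of Mgmt, against the distance between lowest annotated coordinates in Mb. Filled circles were called by limma, and Mgmt, at -3.45, is the lowest point, followed by Paox, a polyamine oxidase, at -2.04.

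Pms2 and its left neighbour Aimp2, a subunit of the tRNA synthetase complex on the opposite strand, were both lowest in shCdGAP replicate 1: Aimp2 had 21.9, 45.7 and 53.5 FPKM in shCdGAP and 30.7, 39.5 and 41.1 FPKM in shCON. Of further neighbours, Hsd17b12, Sh3pxd2b, Zcchc9, Fbxo11 and Ccz1 were not called, and Gm13889, left of Alkbh3, was called lower from 7 to 18 reads per library (log2 fold change -0.23, adjusted p = 0.0459, limma). That call was lost in 11 of 14 alternatives, each left-out library among them, with an adjusted p of 0.0343 to 0.237.

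The 5 tested genes most like Mgmt, by the root mean square difference of centred log2(FPKM + 1) values over the 6 libraries, were Kif5c, a kinesin heavy chain (0.12), AI467606 (0.12), Gm11659 (0.14), Selp, encoding P-selectin (0.15), and Micu2, a subunit of the mitochondrial calcium uniporter (0.17). Kif5c had 0.643, 0.293 and 0.299 FPKM in shCdGAP replicates 1, 2 and 3, against 13.9, 17.3 and 16.0 FPKM in shCON. Micu2 had 0.0379, 0.0197 and 0.0174 FPKM in shCdGAP, against 10.3, 12.8 and 13.5 FPKM in shCON. Those most like Msh6 were Casp8ap2 (0.049), Cycs (0.054), Rbmx2 (0.059), Pole2, a subunit of a replicative DNA polymerase (0.060), and Kpnb1, an importin (0.061). Pole2 had 4.15, 12.9 and 14.0 FPKM in shCdGAP replicates 1, 2 and 3, against 11.2, 13.7 and 13.0 FPKM in shCON. The first 5 were low in every shCdGAP library, and the second 5 were low in replicate 1 of shCdGAP. The choice by profile fixed both patterns in advance, so nothing is read from them. The added 1 FPKM also draws unlike ratios together. Levels were 489-fold lower in shCdGAP for Micu2, 338-fold for Gm11659 and 13.3-fold for AI467606, against 61.1-fold for Mgmt.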

How the data were processed

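The authors deposited 1 table with an FPKM value per gene and library and, per the file headers, their own comparison: a mean signal per gene, a log2 fold change and standard error, a test score, and p-values before and after adjustment. Per the submitters' processing notes, Trimmomatic, TopHat2 2.0.13, featureCounts and DESeq2 were used with build mm10; no source used here gives the annotation release or strand handling. Whole reads were recovered from the FPKM, the deposited mean signal and 1 fitted size factor per library (100% of values whole, tolerance 1e-06) and served for depth, the filter and limma-voom. Intervals on reads cover counting error only.

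The filter kept 13483 of 41214 genes: those reaching 10 reads in 3 or more libraries at median depth, with a total of 15 or more. The test was limma 3.58.1 in R 4.3.3 on log2(FPKM + 1), with group as its single term, trend and robust empirical Bayes, 2-sided, Benjamini-Hochberg over all tested genes, threshold 0.05. The planned design used a count model only if the table held counts. The step was tested on simulated data. Members and lists were chosen with earlier results of these data known. Named genes are the 7 members, fixed partners, up to 3 called genes per list (the most abundant where none), the nearest tested neighbours and the 5 most similar profiles. Paox falls outside this rule and was chosen after its value was seen. List genes named only for a call without shCdGAP replicate 1 or in the authors' deposited table also fall outside it. Some list genes, neighbours and partners are not reported here, though counts over lists include them. Positions are from GENCODE M21 (40254 identifiers found) and promoter sequences from RefSeq on GRCm38.p6, with 7 of 7 members matched. Same-numbered libraries deviated together (correlations 0.43, 0.39 and 0.34), so a replicate block was an alternative; this pairing comes from the data, and shCdGAP replicate 2 correlated at 0.35 with shCON replicate 3. Other alternatives were another pseudocount, other filters and scalings, limma-voom, the authors' comparison and leaving out libraries. Python 3.11.15, numpy 2.4.6, pandas 2.3.3, scipy 1.17.1 and matplotlib 3.10.9 were used.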

Additional observations from a re-analysis of the deposited data

How the results depend on the processing

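Over 15 alternatives the difference of Mgmt kept its direction, at -6.09 to -3.36. It was -5.51 with 0.1 FPKM added, -6.09 with limma-voom on recovered reads, which was added after the data were seen, and -5.34 in the authors' deposited table. Alkbh2 stayed between -1.46 and -1.15 and Mpg between -0.37 and -0.18. Msh6 (-0.73 to 0.044) and Pms2 (-0.31 to 0.37) changed sign with the libraries left out. Pms2 also changed sign with all libraries kept, at -0.045 in the main fit and 0.066 in the authors' deposited table. The count of called genes, 2838, was 2458 with the replicate block, which ended the calls on Mutyh and Gm13889 and kept those on Apex1, Mlh3 and Dnmt3a. It ranged from 1237 to 5373 when 1 library was left out, and was 6506 without both libraries numbered 1. The 4 repair genes called became 1 to 11 when 1 library was left out and 17 without both libraries numbered 1. The cause was not tested. Negative binomial count tests, planned only if the table held counts, were not run on recovered reads. Limma-voom on those reads was run instead. Scaling moved the median of all tested genes from -0.010 to at most -0.052. The 7 and 1 reads behind single values of Mgmt set its precision in shCdGAP.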
